A study of Homo sapiens with 14 samples.

Results

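Foregut cells made with LTR5 repressed were compared with endoderm cells made with LTR5 repressed, in bulk RNA-seq of 2 foregut and 3 endoderm libraries, 5 of the 14 samples of the series. LTR5 is the long terminal repeat that flanks HERVK, a primate-specific endogenous retrovirus, and it was targeted with CRISPR interference, in which a catalytically inactive Cas9 fused to the KRAB repressor domain (dCAS9-KRAB) is brought to a DNA sequence by a guide RNA (sgRNA). All libraries are labelled as H9, a human embryonic stem cell (hESC) line. Both groups passed through 3 days of endoderm differentiation with 100 ng/ml Activin A, with the GSK-3 inhibitor CHIR-99021 at 5 μM on the first day and 0.5 μM on the second, and the foregut cells then had 3 more days in a commercial pancreatic differentiation kit. The endoderm libraries carried dCAS9-KRAB and the LTR5 sgRNA, and the control cells, with 3 endoderm and 2 foregut libraries, serve here only to set the LTR5-repressed change beside the change without repression. The control endoderm cells are labelled as having dCAS9-KRAB and no sgRNA. The foregut libraries were grouped by their titles, because other label fields go against the titles: the repressed foregut libraries are also described as endoderm without sgRNA, and the control foregut libraries as undifferentiated hESC. The paper states that its RNA-seq experiments had 2 or more independent biological replicates. No label ties these libraries to separate cultures, so the p-values measure only the spread between libraries, which may be technical.

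A gene was described where it averaged 5 or more normalised read counts per 1000000 gene reads (CPM, after TMM normalisation) in either LTR5-repressed group, which 11791 of the 20735 genes tested did. The stage change is the fitted log2 ratio of foregut over endoderm, given with its standard error (SE), and a gene was called with an edgeR adjusted p under 0.05 and a fold over 2. Definitive endoderm forms from mesendoderm under Nodal signalling and carries SOX17, CXCR4 and FOXA2. It then folds into the gut tube, whose anterior portion, the foregut, gives rise to the pharynx, lung, liver, pancreas and stomach. Retinoic acid, hedgehog, FGF, BMP and WNT signals pattern the tube from front to back, and forkhead factors of the FOXA family open liver and pancreas genes within it.

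The libraries held from 11583063 to 31850493 gene reads. Mitochondrial transcripts took 9.16 to 13.3% of the gene reads in the LTR5-repressed endoderm and 22.4 to 34.7% in the LTR5-repressed foregut. From 1507 to 2239 genes had exactly 1 read in an endoderm library, and 253 and 286 did in the foregut libraries, which were deeper, so 0 reads in foregut and 0 reads in endoderm may not mean the same. Between the foregut libraries, 32 genes had 0 reads in replicate 2 and 5 CPM or more in replicate 1, and 8 the other way round. Genes with 3 or more reads numbered 17010 in repressed foregut replicate 1 and 14604 in replicate 2, and 16894 and 17531 in control foregut. A lower bound given below for a fall to 0 reads in foregut covers counting error only and is no firm minimum. Across all 12 bulk libraries, the 4 foregut libraries did not match the labelled line on chromosome Y genes and the other 8 did, and the materials of the study name both H1 and H9. Stage, cell line and preparation therefore cannot be told apart in any value below. Of the genes described, 410 lie on chromosomes X and Y. In bulk RNA, fewer cells of a type and less RNA per cell cannot be told apart either.

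The stage change of the targeted repeats did not pass the test. LTR5_Hs, the youngest LTR5 subfamily, had 6.92, 7.22 and 9.41 CPM in LTR5-repressed endoderm and 3.88 and 5.16 CPM in LTR5-repressed foregut, a log2 change of -0.80 ± 0.46 (SE; edgeR adjusted p = 0.241). Control endoderm had 9.81 to 11.0 CPM of LTR5_Hs and control foregut 4.95 and 6.46 CPM. The LTR5_Hs ranges of the 2 repressed groups did not overlap, although the change was not called. LTR5B, an older subfamily, had 1.12, 1.91 and 2.27 CPM in repressed endoderm and 2.18 and 2.47 CPM in repressed foregut, with overlapping ranges, while control foregut had 4.80 and 6.43 CPM. Between repressed and control foregut the LTR5B difference was -1.27 ± 0.59 on the log2 scale (edgeR adjusted p = 0.304). That of LTR5_Hs was -0.34 ± 0.40 in foregut (edgeR adjusted p = 0.738) and -0.41 ± 0.33 in endoderm, neither called. HERVK-int, the body that LTR5 flanks, averaged 88.5 CPM in repressed and 45.2 CPM in control endoderm (log2 0.97 ± 0.29, not called). Its foregut means were 58.2 and 49.4 CPM. LTR5-repressed thus names the treatment, and these levels alone do not show repression. Reads of young repeats that map to several places were not counted, which limits these levels.

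Foregut maturation with LTR5 repressed was marked by the rise of liver and epithelial genes and the near loss of mesendoderm genes. Most pluripotency genes fell, with exceptions given below. Of the 11791 genes, 2139 were called higher and 2256 lower in foregut, 37.3% in all, where 26.6% of all genes tested were called, 12.7% higher and 13.9% lower. The median log2 change was -0.15 over the described genes and -0.17 over all genes tested. Of 9111 genes at the 5 CPM level in both stages 2518 were called, 969 higher and 1549 lower. A further 1497 genes reached that level in foregut alone and 1183 in endoderm alone. Of the former 1170 were called, all higher, and of the latter 707, all lower. Their direction follows from the level itself, so list counts and medians below lean that way where they hold such genes. The ranges of the groups did not overlap for 7957 of the genes, where 56.5% of all genes tested were without overlap. The plot of listed genes by list gives the change of each pathway or marker list used here.

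**Figure D1:**
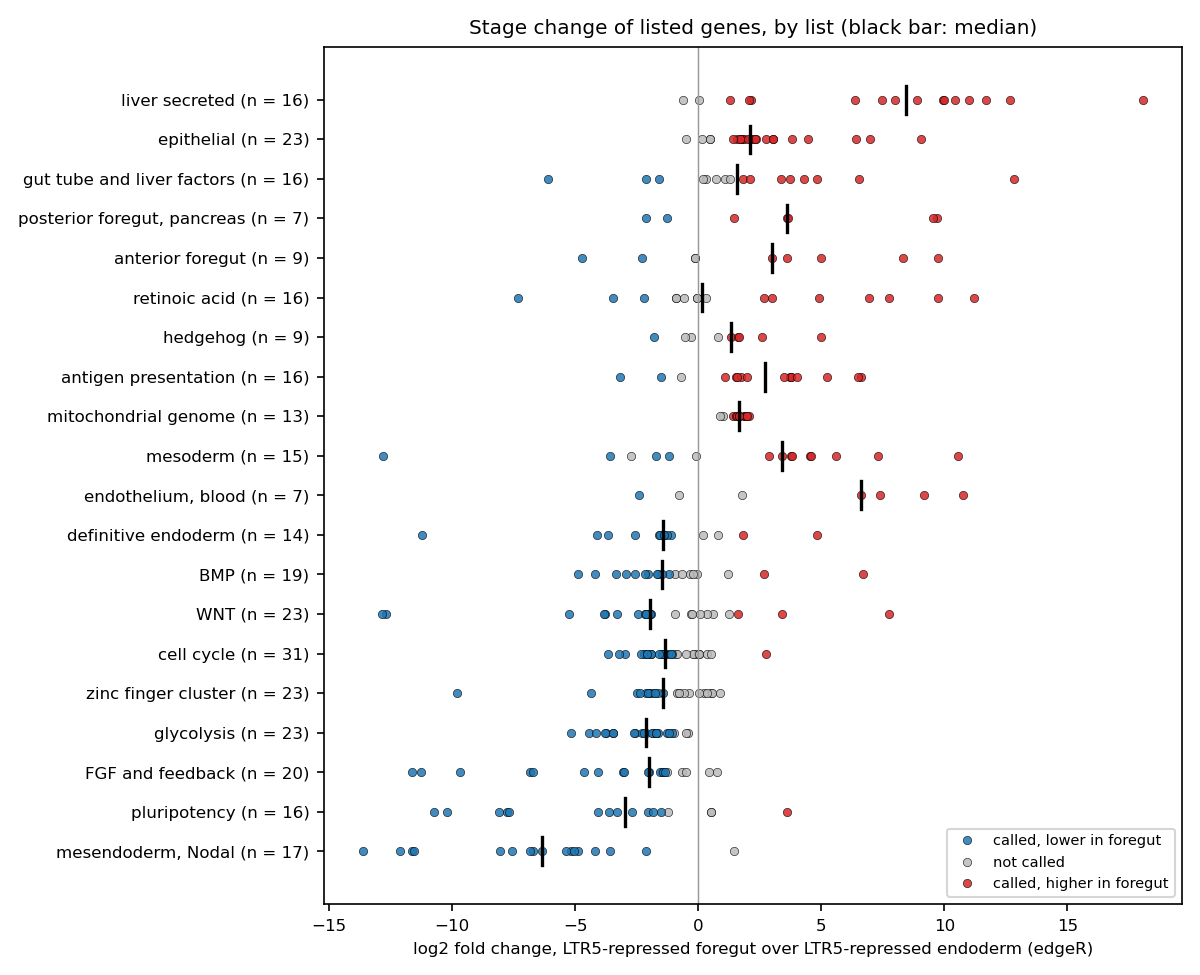
Log2 change from LTR5-repressed endoderm to LTR5-repressed foregut (x axis, edgeR) of each described gene in 20 lists (y axis, with the number of genes), where red points were called higher in foregut, blue points lower and grey points were not called. The liver secreted list has the highest median, 8.43, and the mesendoderm and Nodal list the lowest, -6.35.

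Liver genes at the 5 CPM level had the highest median rise of the lists. Of 30 listed genes for proteins that liver secretes, 16 reached 5 CPM, of which 14 were called higher, none lower, and 2, APOC1 and ASGR1, were not called. The median log2 change of these 16 was 8.43. Listed genes with 0 reads in endoderm could reach the 5 CPM level only through foregut, so this median leans to rises by the choice of genes. It leaves out 9 listed genes that were not tested and 5 under the level. The median of all genes tested, -0.17, had no such limit and is not a like comparison. Control cells had a median of 8.87 over these 16 genes. TTR, which carries thyroid hormone and retinol-binding protein, had 0 reads in the 3 LTR5-repressed endoderm libraries and 1989 and 1495 CPM in the 2 foregut libraries. Against a floor of 3 reads over the endoderm group this is at least 28200-fold higher (edgeR adjusted p = 4.54e-05). Control foregut had 1540 and 1954 CPM of TTR.

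The lipoprotein and plasma protein genes moved the same way. APOA1, the main protein of high-density lipoprotein, had 0.198, 0.430 and 1.09 CPM in endoderm and 582 and 500 CPM in foregut, a log2 change of 9.96 ± 0.50 (edgeR adjusted p = 4.21e-05). Its partner APOA2 went from 1.24 to 3.49 CPM in endoderm to 602 and 682 CPM in foregut, a log2 change of 7.98 ± 0.44 (edgeR adjusted p = 4.61e-05). Both were about as high in control foregut, where APOA1 had 505 and 764 CPM. VTN, the adhesion protein vitronectin, had 0 to 0.198 CPM in endoderm and 156 and 158 CPM in foregut, a log2 change of 10.45 ± 0.52 (edgeR adjusted p = 4.21e-05). AMBP, the precursor of alpha-1-microglobulin and bikunin, had 0.0840 to 0.132 CPM in endoderm and 44.8 and 59.6 CPM in foregut. None of these genes had overlapping ranges between stages.

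Clotting genes rose from 0 reads. F2, which encodes prothrombin, had 0 reads in endoderm and 44.6 and 38.8 CPM in foregut, at least 672-fold higher. FGA and FGB, 2 fibrinogen chains, had 0 reads in endoderm, and in foregut FGA had 18.6 and 23.2 CPM and FGB 5.66 and 7.25 CPM. The remaining chain, FGG, stayed under 5 CPM at 2.39 and 2.36 CPM in foregut. In control foregut FGB had 88.8 and 17.4 CPM, a spread wider than the gap to the repressed libraries, and the difference between repressed and control foregut did not pass the test (log2 -3.04, edgeR adjusted p = 0.0957). SERPINA1, the protease inhibitor alpha-1-antitrypsin, had 0 reads in endoderm and 6.75 and 19.1 CPM in foregut, at least 197-fold higher. ALB, which encodes albumin, had 0 reads in both LTR5-repressed foregut libraries, HP also had 0, and AFP was not tested for lack of reads. APOE, a lipoprotein gene already present in endoderm, rose least of the called genes, from 267 to 349 CPM to 1105 and 381 CPM (log2 1.31 ± 0.40, edgeR adjusted p = 0.0427).

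Promoters of these genes are shown because forkhead and HNF1 factors are known to bind short words in liver promoters. RefSeq promoters (GRCh38.p14) were matched for 10 of the 14 liver genes called higher. In the 250 bases before any of a gene's listed starts, on either strand, 5 of the 10 held TGTTTAC or TGTTTGC, words of the forkhead motif, where 7.41% of 27305 genes, counted over their starts in the same way, held either. GTTAAT, a word of the HNF1 motif, stood in 4 of the 10 (F2, FGA, FGB and SERPINA1), where 7.50% of all genes held it. AGATAA, a word of the GATA motif, stood in 1, VTN, where 11.1% of all genes held it. The words do not overlap in these promoters. A match describes letters, not a bound site. The genes were picked because they rose here, and whether a forkhead, HNF1 or GATA factor acts on them was not tested. The last 120 bases before the start follow, read 5′ to 3′ on the gene's strand, with forkhead and HNF1 words in capitals. AMBP (chr9:114078301-114078420, minus strand) and APOA2 (chr1:161223629-161223748, minus strand) each hold a forkhead word about as far from the start, and so does VTN (chr17:28370308-28370427, minus strand), 43 bases before the start. F2 (chr11:46719093-46719212, plus strand) and FGA (chr4:154590743-154590862, minus strand) hold an HNF1 word, and a second start of SERPINA1 (chr14:94388603-94388722, minus strand) holds both.
AMBP: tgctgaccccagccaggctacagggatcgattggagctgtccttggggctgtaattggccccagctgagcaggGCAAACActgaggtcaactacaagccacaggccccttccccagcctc
APOA2: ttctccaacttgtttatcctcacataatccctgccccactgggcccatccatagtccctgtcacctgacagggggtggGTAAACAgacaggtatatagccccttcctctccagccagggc
VTN: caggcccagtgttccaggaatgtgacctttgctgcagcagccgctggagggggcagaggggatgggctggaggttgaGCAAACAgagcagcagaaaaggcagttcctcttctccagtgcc
F2: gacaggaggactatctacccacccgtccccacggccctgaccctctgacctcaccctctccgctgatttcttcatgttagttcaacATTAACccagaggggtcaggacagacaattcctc
FGA: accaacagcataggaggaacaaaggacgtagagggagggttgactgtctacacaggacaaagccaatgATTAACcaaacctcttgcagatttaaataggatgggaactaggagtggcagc
SERPINA1: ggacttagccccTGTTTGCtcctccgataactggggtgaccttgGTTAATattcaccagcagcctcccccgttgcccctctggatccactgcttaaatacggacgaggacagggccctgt

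**Figure D2:**
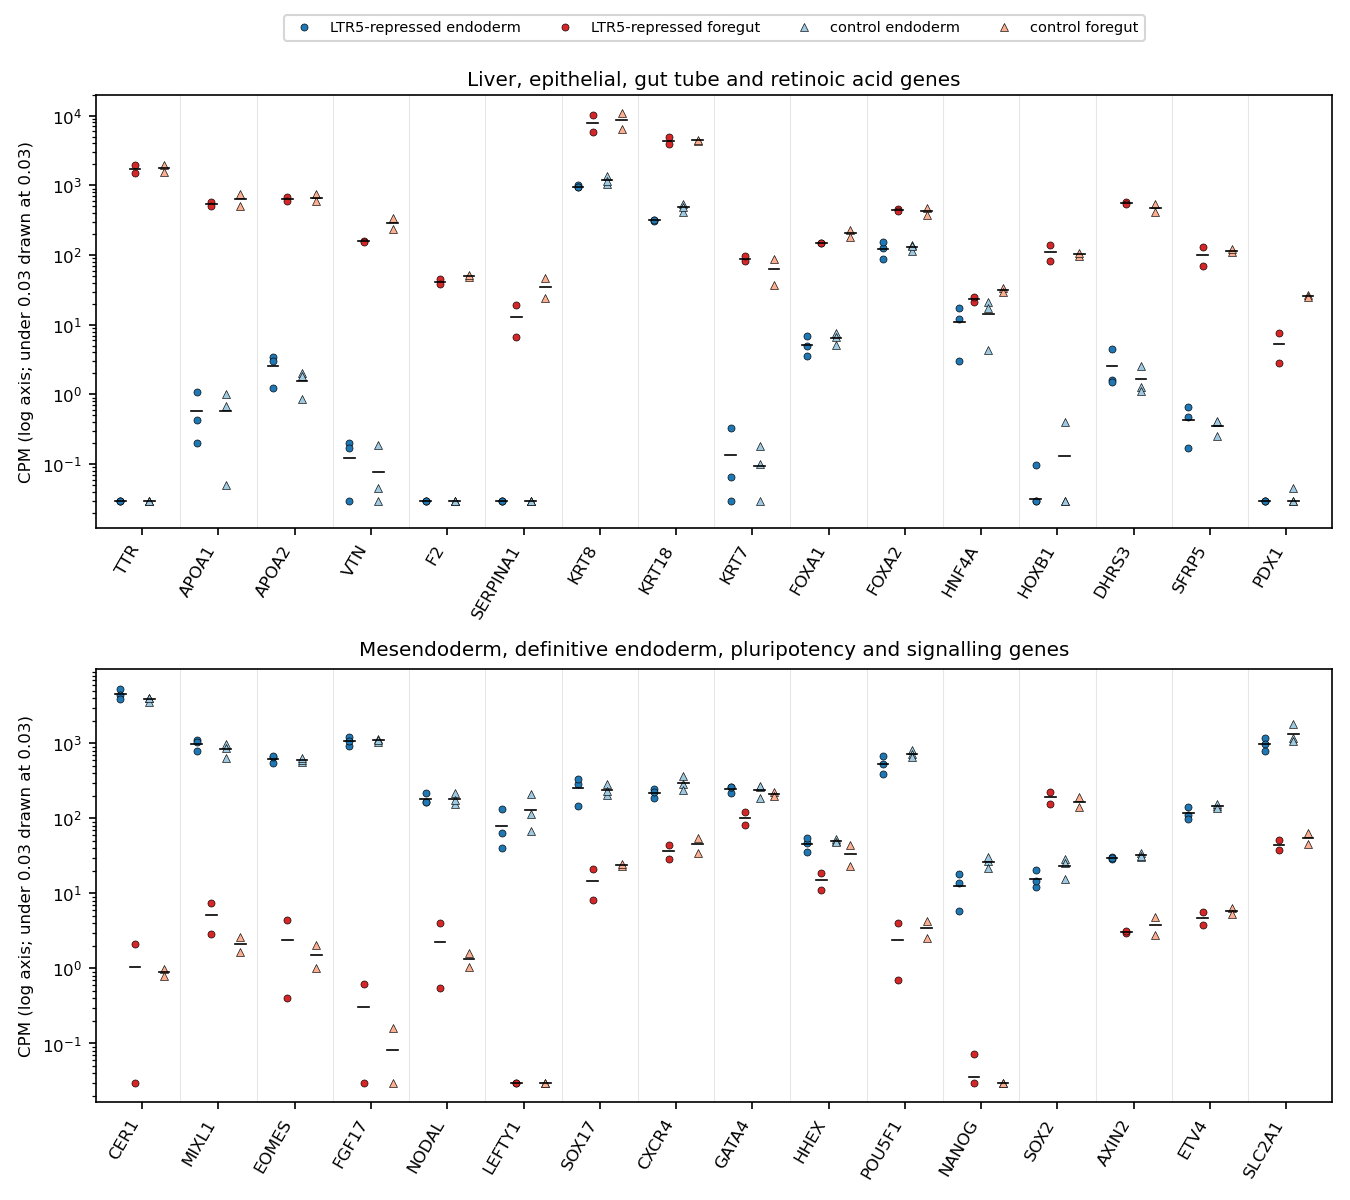
CPM in each library (log y axis, values under 0.03 drawn at 0.03) of 32 genes in LTR5-repressed endoderm and foregut (filled circles) and control endoderm and foregut (triangles), with a black bar at each group mean. Liver genes such as TTR go from 0 to 1989 and 1495 CPM, CER1 goes from 3891 or more to 2.10 CPM or less, and the control groups of each stage are drawn beside the repressed ones.

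Transcription factors of the gut tube and liver rose in part. Of 24 listed factors 16 reached 5 CPM, of which 8 were called higher, 3 lower and 5 were not called, with a median log2 change of 1.57. FOXA1, a forkhead pioneer factor, had 3.56, 4.97 and 6.97 CPM in endoderm and 148 and 147 CPM in foregut, a log2 change of 4.84 ± 0.31 (edgeR adjusted p = 7.82e-05). Its relative FOXA2, present from definitive endoderm on, rose from 88.3 to 156 CPM to 451 and 431 CPM (edgeR adjusted p = 0.00196). FOXA1 thus changed from a few CPM to well over 100 in both libraries, while FOXA2 started high. NR2F1, an orphan nuclear receptor, had 0 reads in endoderm and 36.6 and 56.7 CPM in foregut. MEIS1 and MEIS2, homeobox partners of HOX proteins, rose by log2 4.32 and 3.38.

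HNF4A, the nuclear receptor at the head of the hepatocyte programme, was not called: it had 3.03, 12.1 and 17.3 CPM in endoderm and 21.3 and 25.0 CPM in foregut (log2 1.10 ± 0.59, edgeR adjusted p = 0.186). Its spread in endoderm was wide, and the ranges did not overlap. Of the listed factors 3 fell, all of them used by the early liver bud. TBX3 had 24.6 to 43.4 CPM in endoderm and 1.02 and 0 CPM in foregut. HHEX, needed for liver and pancreas buds, fell from 35.7 to 54.7 CPM to 11.2 and 18.9 CPM (log2 -1.60 ± 0.33, edgeR adjusted p = 0.00900). PROX1 fell by 2.12 on the log2 scale.

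Epithelial genes rose as a group. All 23 listed genes reached 5 CPM, of which 19 were called higher, none lower and 4 (OCLN, ESRP1, TJP1 and KRT19) were not called, with a median log2 change of 2.10. KRT8, a keratin of simple epithelia, had 998, 935 and 944 CPM in endoderm and 10110 and 5780 CPM in foregut (log2 3.05 ± 0.27, edgeR adjusted p = 0.000251). Its partner KRT18 went from 315, 313 and 314 CPM to 4872 and 3889 CPM (log2 3.80 ± 0.22). Both keratins varied little among the endoderm libraries and stood above all of them in both foregut libraries. KRT7, a keratin of ducts, had 0 to 0.335 CPM in endoderm and 81.4 and 97.1 CPM in foregut. Of the claudins, which seal tight junctions, CLDN4 rose by log2 6.99, from 0.504 to 1.05 CPM to 96.5 and 112 CPM, and CLDN6 by log2 2.34. CDH1, the adhesion protein E-cadherin, had 56.8 to 78.8 CPM in endoderm and 244 and 339 CPM in foregut (log2 2.10 ± 0.24). KRT19 had 2737, 761 and 940 CPM in endoderm, where replicate 1 stood apart, and 2415 and 1729 CPM in foregut.

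Most posterior foregut and pancreas genes at level rose, from low levels. Of 17 listed genes 7 reached 5 CPM, of which 5 were called higher and 2, GATA4 and PROX1, lower. The list's summed level moved little, from 270 to 320 CPM in repressed endoderm to 330 and 349 CPM in repressed foregut. Control foregut had 516 and 474 CPM. PDX1, the master factor of pancreas, had 0 reads in endoderm and 2.79 and 7.73 CPM in foregut, at least 80.5-fold higher. Control foregut had more PDX1, 27.0 and 24.7 CPM, and these ranges did not overlap, but the difference did not pass the test (log2 -2.30, edgeR adjusted p = 0.114). RFX6, a factor of the pancreatic endocrine line, had 2 reads in endoderm and 31.9 and 40.0 CPM in foregut, a ratio of 853 (95% counting interval 236 to 7050). MNX1, needed for the dorsal pancreas bud, had 5.74, 5.79 and 7.23 CPM in endoderm and 79.2 and 74.6 CPM in foregut (log2 3.62 ± 0.24). SOX9 rose by log2 3.66. PTF1A, NEUROG3 and NEUROD1, later pancreas genes, were not tested for lack of reads, and NKX6-1 had 0 reads in foregut.

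Anterior foregut genes gave a mixed picture. Of 20 listed genes 9 reached 5 CPM, of which 5 were called higher and 2 lower. SOX2, a factor of stomach, oesophagus and pharynx that hESC also express, had 12.1, 20.4 and 14.6 CPM in endoderm and 157 and 224 CPM in foregut (log2 3.60 ± 0.30, edgeR adjusted p = 0.000173). PAX1, of the pharyngeal pouches, had 1 read in endoderm, and its foregut to endoderm ratio was 398 (95% counting interval 71.1 to 15800). TBX1, a pharyngeal factor, fell by 4.71 on the log2 scale. NKX2-1, which marks lung and thyroid, had 0 reads in both foregut libraries.

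Of 18 listed midgut and hindgut genes 2 reached 5 CPM. VIL1, the villin of microvilli, had 0.725, 0.956 and 1.34 CPM in endoderm and 57.5 and 59.9 CPM in foregut (log2 5.88 ± 0.33). LGR5, a WNT co-receptor also on the definitive endoderm list, had 8.70, 17.4 and 18.6 CPM in endoderm and 0 reads in foregut, at least 251-fold lower. CDX2, the intestinal homeobox factor, had 1.67 and 3.76 CPM in LTR5-repressed foregut and 24.5 and 12.3 CPM in control foregut, a difference of stage change of -3.58 on the log2 scale that did not pass the test (edgeR adjusted p = 0.190).

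Retinoic acid targets and enzymes changed in both directions. Of 20 listed genes 16 reached 5 CPM, of which 7 were called higher and 3 lower, with a median log2 change of 0.15. HOXB1, a direct target of retinoic acid receptors, had 2 reads in endoderm and 140 and 83.1 CPM in foregut, a ratio of 2740 (95% counting interval 757 to 22600). DHRS3, a reductase that retinoic acid induces, had 4.48, 1.63 and 1.51 CPM in endoderm and 578 and 533 CPM in foregut (log2 7.77 ± 0.49, edgeR adjusted p = 7.63e-05). The receptors RARB and RARA rose by log2 4.91 and 2.68. The 2 enzymes that break retinoic acid down moved apart. CYP26A1 fell from 881, 713 and 685 CPM to 149 and 184 CPM (log2 -2.19 ± 0.24, edgeR adjusted p = 0.000604). CYP26B1 rose from 0.143 to 0.264 CPM to 9.32 and 38.4 CPM (log2 6.93 ± 0.74), with a 4-fold spread between its foregut libraries.

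Of the hedgehog list, 9 of 14 genes reached 5 CPM, of which 5 were called higher and 1 lower. The ligands SHH and IHH were low in endoderm, and SHH reached 4.14 and 8.08 CPM (log2 2.58) and IHH a mean of 7.88 CPM (log2 4.98 ± 0.97). The transducer SMO rose by log2 1.67 and the transcription factor GLI2 fell by 1.81 on the log2 scale. PTCH1, the receptor and a usual target of the pathway, had a log2 change of -0.55 and was not called.

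Mesendoderm and Nodal genes were almost lost. Of 20 listed genes 17 reached 5 CPM, of which 16 were called lower, none higher and 1, GATA3, was not called. The median log2 change was -6.35, and it was -7.59 in control cells. Listed genes near absence in foregut could reach the level only through endoderm, so the count and median lean to falls by the choice of genes. CER1, a secreted antagonist of Nodal, BMP and WNT, had 5368, 4368 and 3891 CPM in endoderm and 0 and 2.10 CPM in foregut (log2 -12.13 ± 1.30, edgeR adjusted p = 0.000526). MIXL1 and EOMES, factors of the primitive streak, fell from 798 to 1099 CPM to 2.90 and 7.56 CPM and from 542 to 669 CPM to 0.399 and 4.37 CPM. NODAL itself fell from 219, 165 and 167 CPM to 0.544 and 4.02 CPM (log2 -6.35 ± 0.78). In each of these 4 genes foregut replicate 2 was above replicate 1 and both were far under every endoderm library. LEFTY1, a feedback inhibitor of Nodal, had 40.0, 64.4 and 134 CPM in endoderm and 0 reads in foregut, at least 1240-fold lower. That bound carries the limit on foregut zeros given above. TBXT, listed under the symbol T, had 13.5 to 27.0 CPM in endoderm and 0 reads in foregut. GATA3 had 4.02 to 7.48 CPM in endoderm and 24.9 and 8.39 CPM in foregut (edgeR adjusted p = 0.0607). The Nodal receptors and SMAD genes moved less: of 9 at level, 3 were called lower and 6 were not called, with a median of -0.59. Of all described genes 37.3% were called in either direction, so that count is not particular to them.

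Definitive endoderm genes fell less steeply. Of 15 listed genes 14 were at level, of which 10 were called lower and 2, FOXA1 and FOXA2, higher, with a median log2 change of -1.42. SOX17, which sets endoderm fate, had 147, 283 and 336 CPM in endoderm and 8.27 and 21.2 CPM in foregut (log2 -4.12 ± 0.55, edgeR adjusted p = 0.00136). CXCR4, a chemokine receptor used to sort definitive endoderm, fell from 187 to 245 CPM to 44.5 and 29.1 CPM (log2 -2.57 ± 0.28). GATA4 had 216, 262 and 258 CPM in endoderm and 82.2 and 123 CPM in foregut (log2 -1.26 ± 0.25, edgeR adjusted p = 0.00840). In control cells GATA4 had 185 to 270 CPM in endoderm and 224 and 196 CPM in foregut, and the difference between the changes was -1.07 ± 0.34 (edgeR adjusted p = 0.414). Markers of the labelled stages were mixed. SOX17 and CXCR4 were higher in the endoderm libraries, and FOXA1 and the called liver genes in the foregut libraries. Of the other listed genes, FOXA2 was higher in foregut, HHEX, PROX1 and TBX3 fell, and HNF4A was not called. ALB, HP and NKX2-1 were without reads in foregut.

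Pluripotency genes fell, with exceptions. Of 18 listed genes 16 were at level, of which 12 were called lower, 1 higher and 3 were not called, with a median of -2.99. POU5F1, which encodes OCT4, had 675, 531 and 386 CPM in endoderm and 4.06 and 0.699 CPM in foregut (log2 change with SE 0.78, edgeR adjusted p = 0.000390, 1 of the steepest falls in the list). NANOG had 5.80, 18.1 and 13.6 CPM in endoderm and 2 reads in foregut, a ratio of 330 lower (95% counting interval 91.0 to 2730). SOX2, described above with the anterior foregut, is the gene that rose. LIN28A, an RNA-binding protein, had 411, 719 and 472 CPM in endoderm and 831 and 692 CPM in foregut, with overlapping ranges and no call (log2 0.51, edgeR adjusted p = 0.189).

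FGF ligands and feedback genes fell together. Of 23 listed genes 20 were at level, of which 15 were called lower, none higher and 5 were not called, with a median of -2.01. FGF17, a ligand of the gastrula, had 1212, 911 and 1085 CPM in endoderm and 0.617 and 0 CPM in foregut (log2 -11.64 ± 0.86, edgeR adjusted p = 0.000120). The FGF-induced factor ETV4 fell from 142, 111 and 97.6 CPM to 3.77 and 5.59 CPM (log2 -4.64 ± 0.33), and the feedback inhibitor SPRY4 from 206, 165 and 138 CPM to 8.20 and 11.9 CPM (log2 -4.08 ± 0.32). DUSP6, another feedback gene, fell by 1.47 on the log2 scale and the receptor FGFR1 by 1.42. FGF10 and FGF19 had 0 reads in foregut, at least 89.0-fold and 281-fold lower.

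WNT and BMP genes fell, while some receptors and antagonists rose. Of 29 listed WNT genes 23 were at level, of which 13 were called lower and 3 higher, with a median of -1.95. AXIN2, a general target of WNT and β-catenin, had 28.6, 30.9 and 30.0 CPM in endoderm and 2.97 and 3.15 CPM in foregut (log2 -3.28 ± 0.29, edgeR adjusted p = 0.000228). The targets SP5 and DKK4 had 0 reads in foregut, with DKK4 at 57.8, 40.3 and 27.9 CPM in endoderm. SFRP5, a secreted WNT antagonist of foregut endoderm, rose from 0.659, 0.478 and 0.168 CPM to 129 and 70.8 CPM (log2 7.77 ± 0.47, edgeR adjusted p = 6.84e-05). Of 22 listed BMP genes 19 were at level, of which 11 were called lower and 2 higher, with a median of -1.48. The ligand BMP2 fell from 130, 138 and 149 CPM to 7.07 and 20.4 CPM (log2 -3.34 ± 0.45) and BMP4 from 144, 95.7 and 88.1 CPM to 36.0 and 17.7 CPM (log2 -2.02 ± 0.38). The BMP genes that rose were the receptor BMPR1B (log2 6.71 ± 0.56) and ID4 (log2 2.69), an inhibitor of DNA binding and not an antagonist of BMP.

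Glycolysis genes fell in concert while the mitochondrial genome rose. Of 24 listed glycolysis and hypoxia genes 23 were at level, of which 20 were called lower and none higher, with a median log2 change of -2.10 and -2.14 in control cells. The glucose transporter SLC2A1 had 1166, 972 and 792 CPM in endoderm and 38.2 and 51.3 CPM in foregut (log2 -4.45 ± 0.31, edgeR adjusted p = 9.62e-05). LDHA, lactate dehydrogenase, fell from 6371, 5649 and 6246 CPM to 1223 and 1307 CPM (log2 -2.27 ± 0.22). GAPDH, often used as a reference gene, had 7896 to 11190 CPM in endoderm and 7807 and 5833 CPM in foregut and was not called (edgeR adjusted p = 0.247). Of 13 protein-coding genes of the mitochondrial genome 11 were called higher and none lower, with a median of 1.67. MT-CO1 had 28950, 24320 and 33740 CPM in endoderm and 99730 and 55200 CPM in foregut (log2 1.42). This list is the mitochondrial share given above seen gene by gene, and its call count fell to 6 of 13 without foregut replicate 1.

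Of 33 listed cell cycle genes 31 were at level, of which 19 were called lower, 1 higher and 11 were not called, with a median of -1.33. TYMS, which makes thymidylate, had 161, 194 and 180 CPM in endoderm and 14.9 and 13.0 CPM in foregut (log2 -3.68 ± 0.24, edgeR adjusted p = 8.71e-05), and the mitotic kinase PLK1 fell by 3.23 on the log2 scale. The gene that rose was CDKN1C, an inhibitor of cyclin-dependent kinases, from 19.7, 20.8 and 26.0 CPM to 205 and 93.7 CPM (log2 2.75 ± 0.34). MKI67, the proliferation marker, had 65.9, 102 and 81.4 CPM in endoderm and 61.3 and 29.2 CPM in foregut and was not called (edgeR adjusted p = 0.0997).

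Antigen presentation genes rose. Of 21 listed genes 16 were at level, of which 13 were called higher, 2 lower and 1 was not called, with a median of 2.73 and 2.08 in control cells. HLA-B, of class I, had 13.2, 13.0 and 15.1 CPM in endoderm and 518 and 519 CPM in foregut (log2 5.24 ± 0.22, edgeR adjusted p = 4.07e-05). CD74, the invariant chain of class II, rose from 3.76, 3.63 and 5.21 CPM to 456 and 356 CPM (log2 6.60 ± 0.28). The genes that fell were both of class II. HLA-DQB1 went from 38.1, 49.1 and 35.4 CPM to 5.15 and 3.85 CPM (log2 -3.18 ± 0.31), and HLA-DRB1 fell by 1.53 on the log2 scale. HLA genes have near-identical copies and many alleles, so reads may be split between them, and a change of cell line could not be told apart from a change of stage here.

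Markers of other cell types moved with the stage. Of 23 listed mesoderm genes 15 were at level, 9 called higher and 4 lower, and the list's summed level was 446 to 560 CPM in endoderm and 836 and 946 CPM in foregut. COL1A1, a fibrillar collagen, rose from 20.9 to 29.3 CPM to 364 and 304 CPM (log2 3.80 ± 0.24), while FOXF1 and HAND1, defining factors of lateral mesoderm, had 0 reads in both foregut libraries. Of 15 endothelial and blood genes 7 were at level, 4 higher and 1 lower, with a summed level of 57.6 to 123 CPM in endoderm and 243 and 185 CPM in foregut. CDH5, the cadherin of endothelium, had 1 read in endoderm and 47.7 CPM in each foregut library, a ratio of 2290 (95% counting interval 410 to 90400), and the blood markers GATA1 and PTPRC were not tested for lack of reads. Of 15 neural genes 6 were at level, 1 higher and 4 lower, with a summed level of 242 to 316 CPM in endoderm and 169 and 141 CPM in foregut, and TUBB3 was at 0 reads in foregut. Of 15 trophectoderm and amnion genes 6 were at level, 2 higher (KRT7 and IGFBP3) and 2 lower, with a summed level of 63.6 to 87.8 CPM in endoderm and 234 and 267 CPM in foregut, and CGA and TFAP2A were at 0 reads in foregut. The part of such cells in the other changes was not tested.

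Among basement membrane and matrix genes, 20 of 23 were at level, 8 called higher and 5 lower. COL6A1 fell from 1314, 1190 and 1083 CPM to 237 and 152 CPM (log2 -2.62 ± 0.28). Of 13 mesenchymal transition genes 12 were at level, 2 called higher and 5 lower, with SNAI1, a repressor of CDH1, down by log2 -3.12. Of 20 stress and RNA quality genes 17 were at level, 8 higher and 4 lower. The immediate early genes FOS and EGR1, which respond within minutes to handling, rose by log2 4.81 and 6.05, and their part in other changes was not tested.

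Among called protein-coding genes whose groups did not overlap, the rule for extremes named the 10 largest rises and falls, and 20 of 20 had 0 reads in every library of a group. The rises were TTR, CFAP276, PLVAP, KRT4, NR2F1, AOC1, C1QL2, F2, DDC and ISX, from at least 28200-fold for TTR to at least 441-fold for ISX. PLVAP, of fenestrated endothelium, had 222 and 86.9 CPM in foregut, KRT4 is a keratin of stratified epithelium, and DDC makes dopamine and serotonin. The falls included ERBB4, CD48, GYPB, LEFTY1, KLHL4, NLRP2, APCDD1L, SP5 and HAND1, from at least 3090-fold for ERBB4 to at least 741-fold for HAND1. Bounds of these falls carry the limit on foregut zeros given above. ERBB4, a neuregulin receptor, had 104, 195 and 266 CPM in endoderm. Ranked by reads among called protein-coding genes that are not mitochondrial, the first 10 in foregut included the growth factor IGF2, at 17.0, 9.56 and 9.24 CPM in endoderm and 8235 and 3889 CPM in foregut (log2 8.99 ± 0.50), and its binding proteins IGFBP5 (log2 change with SE 0.32, from 29.2 to 55.4 CPM to 2249 and 1932 CPM) and IGFBP2 (log2 1.53). EEF1A1, a translation elongation factor, ranked first in endoderm among the same called genes, with 24010, 15360 and 13750 CPM and had 3982 and 4448 CPM in foregut (log2 -2.07 ± 0.31). ENO1, PKM, RPLP0, RPS18, RPS3, RPS3A, RPS4X, LDHA and CER1 followed in endoderm, each of them lower in foregut. KRT8, KRT18, GNAS, TTR, RPS18, RPS3 and EEF1A1 completed the first 10 in foregut, of which GNAS, a G protein subunit, rose by log2 1.17.

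The stage change was then set beside that of control cells, which share no library with it. Over the 11791 genes the log2 changes of both arms had a correlation of r = 0.93 across genes, as a description, and 10401 had the same sign. In a fit of all 10 libraries 4783 genes were called with LTR5 repressed and 4405 in control cells, where 25.5% of all genes tested were called, and 3669 were called in both with the same sign, 76.7% of the first and 83.3% of the second. The gene called in both with opposite signs numbered 1. The median absolute difference between the arms was 0.33 on the log2 scale. The test of the difference itself called 31 of the 11791 genes, 8 of them with the change higher under repression, where 0.194% of all genes tested were called. At an unadjusted p under 0.05 there were 789.

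**Figure D3:**
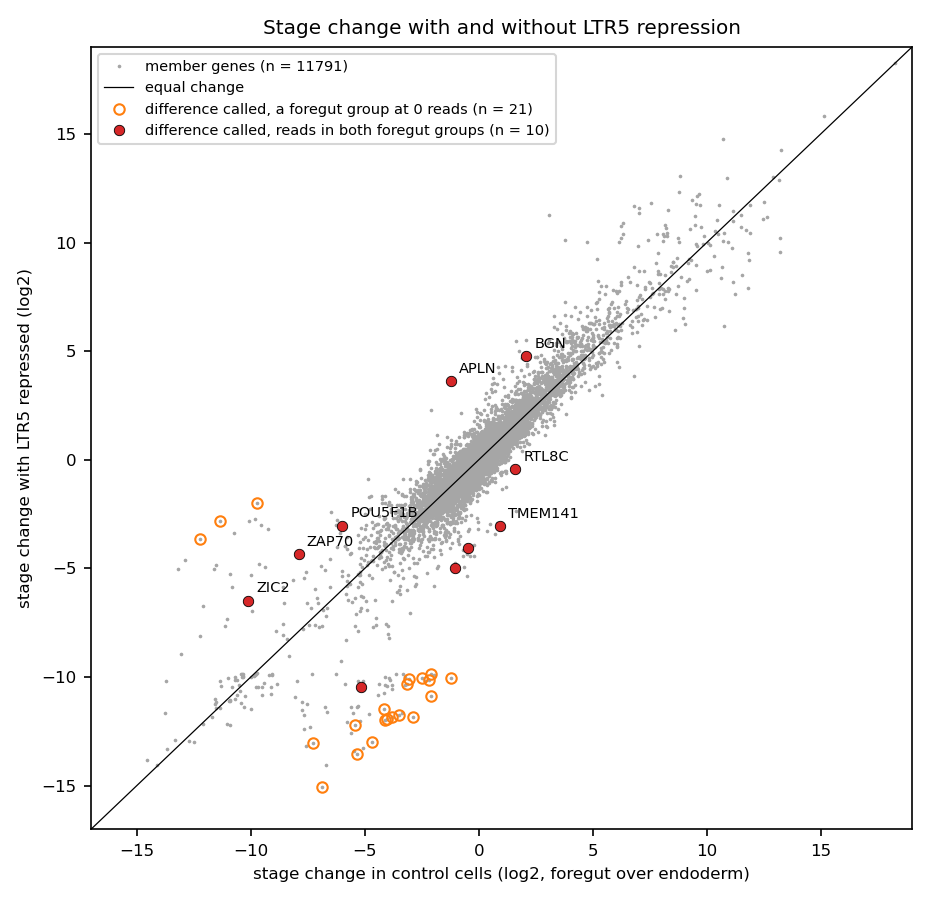
Log2 stage change in control cells (x axis) against that with LTR5 repressed (y axis) for 11791 genes (grey), with the line of equal change in black. The 31 genes whose changes differed are marked, 21 with a foregut group at 0 reads (open orange) and 10 with reads in both foregut groups (red).

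Of these 31 genes, 18 had 0 reads in both LTR5-repressed foregut libraries and 3 had 0 reads in both control foregut libraries, so their fitted differences have no firm size. Their calls rest on these zeros too and carry the limit on foregut zeros given above. The part of counting in these calls was not tested. Over all described genes 116 were at 0 reads in both repressed foregut libraries and 79 in both control foregut libraries. The 18 include the chemokine CXCL12, the ligand of CXCR4, which had 23.3, 25.1 and 16 CPM in repressed endoderm and 40.1, 20.6 and 21.1 CPM in control endoderm, and 0 reads in repressed foregut against 2.05 and 1.26 CPM in control foregut. HAND1 had 0 reads in repressed foregut and 0.325 and 0.949 CPM in control foregut. FGF19, SP5, VENTX, MYB, ERBB4 and GAD1 show the same pattern. In each gene named here every foregut library lay under every endoderm library of its arm. NR2C2, another of the 18, had 3.18 and 1.74 CPM in control foregut and 8.03, 5.39 and 3.94 CPM in control endoderm, and its change in control cells was not called (edgeR adjusted p = 0.0979).

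The other 10 genes had reads in both foregut groups, though SAMD11 had 1 read over the repressed foregut libraries and ZAP70 had 4 over the control foregut libraries, so those sizes are not firm either. TMEM141, a small membrane protein, had 12.9, 13.3 and 10.3 CPM in repressed endoderm and 2.25 and 0.655 CPM in repressed foregut, but 20.4, 27.8 and 26.9 CPM in control endoderm and 36.0 and 58.6 CPM in control foregut. It fell with LTR5 repressed and not in control cells, a difference of -3.96 ± 0.57 on the log2 scale (edgeR adjusted p = 0.0280). RTL8C, a gene derived from a retrotransposon gag sequence on chromosome X, had 17.5, 24.5 and 21.3 CPM in repressed endoderm and 19.8 and 11.6 CPM in repressed foregut. In control cells it had 45.8 to 54.3 CPM in endoderm and 147 and 167 CPM in foregut, a difference of -2.04 ± 0.37 (edgeR adjusted p = 0.0435). BGN, the matrix proteoglycan biglycan, went from 39.1, 25.8 and 27.2 CPM to 1140 and 547 CPM with LTR5 repressed and from 37.1 to 47.8 CPM to 117 and 240 CPM in control cells, a difference of 2.69 ± 0.49 (edgeR adjusted p = 0.0435).

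APLN, the ligand apelin of vessels and early mesoderm, had 1.19, 0.621 and 0.588 CPM in repressed endoderm and 11.6 and 8.04 CPM in repressed foregut, while control cells had 5.23, 3.22 and 1.56 CPM in endoderm and 1.40 and 1.46 CPM in foregut (difference 4.83 ± 0.83, edgeR adjusted p = 0.0361). APLN, BGN, RTL8C and KLHL4 lie on chromosome X. ZIC2, a zinc finger factor of epiblast and neural plate, fell in both arms but less with LTR5 repressed, from 90.8, 138 and 131 CPM to 0.870 and 1.83 CPM, against 125 to 179 CPM to 0.130 and 0.128 CPM in control cells (difference 3.63 ± 0.56, edgeR adjusted p = 0.0280). POU5F1B, a near-copy of POU5F1 that can share its reads, behaved likewise, with 4.32 and 2.97 CPM in repressed foregut and 0.617 and 0.539 CPM in control foregut, and so did ZAP70, a T cell kinase, with 1.05 and 1.57 CPM against 0.0325 and 0.0770 CPM. SAMD11 fell in both arms and further with LTR5 repressed, and the long non-coding RNA LINC02315 had 0.653 and 0.350 CPM in repressed foregut against 5.00 and 4.57 CPM in control foregut. Another of the 10 is a pseudogene on chromosome Y that is not reported. The number of genes called in this test went from 0 to 341 when single libraries were left out, so it depends on which libraries are used: 0 remained without repressed endoderm replicate 1, control endoderm replicate 2 or control foregut replicate 1, and 341 came up without repressed foregut replicate 1.

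**Figure D4:**
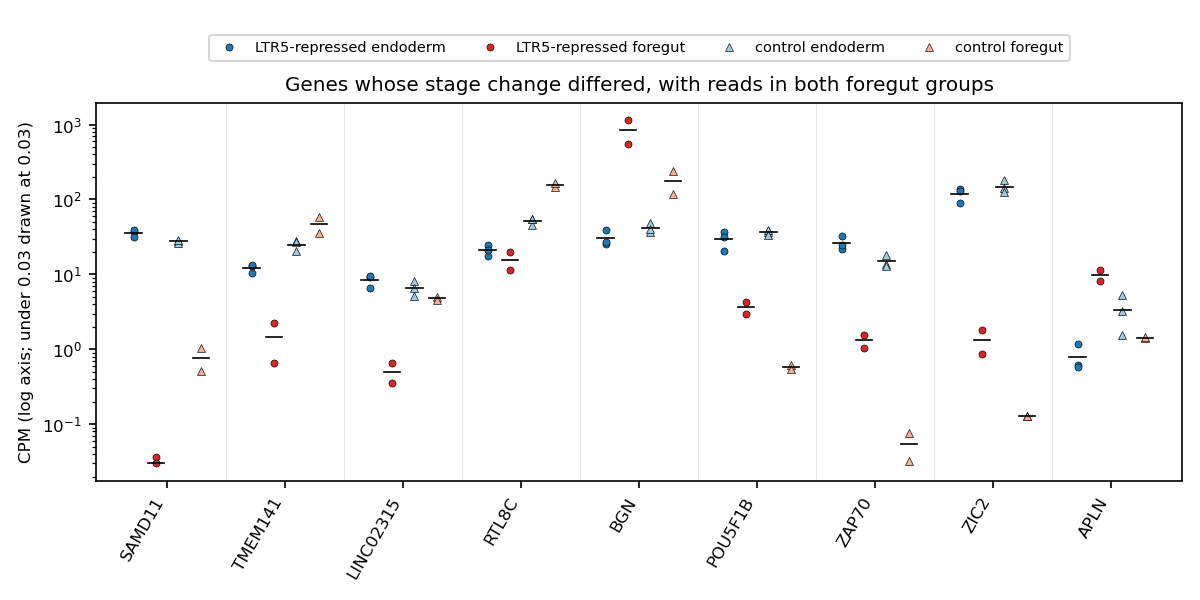
CPM in each library (log y axis, values under 0.03 drawn at 0.03) of 9 genes whose stage change differed between LTR5-repressed cells (circles) and control cells (triangles), with a bar at each group mean. TMEM141 reads 0.655 and 2.25 CPM in repressed foregut against 36.0 and 58.6 CPM in control foregut, and APLN rises with LTR5 repressed from at most 1.19 CPM to 8.04 CPM or more.

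BAAT, DYSF and IQCG, genes with MER11 repeats in their vicinity, were looked at as a list that the study chose on these samples, so their direction is not independent evidence. All 3 were called higher in repressed foregut than in repressed endoderm. BAAT (chromosome 9, 104116464 to 104147682 on GRCh37, minus strand), the enzyme that joins bile acids to glycine or taurine, had 1 read in LTR5-repressed endoderm and 100.7 and 93.2 CPM in LTR5-repressed foregut, a ratio of 4670 (95% counting interval 838 to 184000). Control foregut had 1.04 and 1.05 CPM. The LTR5-repressed foregut libraries were higher than control foregut by log2 6.53 (edgeR adjusted p = 4.81e-05), while the difference of stage changes has no firm size because both endoderm groups were near 0. DYSF, the membrane repair protein dysferlin, went from 1.32, 2.63 and 1.43 CPM to 42.3 and 22.6 CPM with LTR5 repressed and from 3.69 to 6.45 CPM to 16.2 and 17.8 CPM in control cells (difference 2.30 ± 0.57, edgeR adjusted p = 0.198). IQCG, of the cilium, went from 3.43, 4.92 and 4.54 CPM to 38.8 and 32.9 CPM with repression and reached 20.8 and 16.7 CPM in control foregut (difference 1.18 ± 0.47, edgeR adjusted p = 0.540). A MER11A integrant on chromosome 2 (71671564 to 71672723, GRCh37), 7968 bases from DYSF, had 0 reads in repressed foregut and 19 and 8 reads in control foregut.

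KRAB zinc finger genes, whose products silence repeats, fell on balance. Of 41 listed genes of the chromosome 19 cluster 23 were at level, of which 11 were called lower, none higher and 12 were not called, with a median log2 change of -1.43 and of -0.87 in control cells. The count of lower calls was 4 without endoderm replicate 3 and 6 without endoderm replicate 2. ZNF649 fell by 2.48 on the log2 scale, ZNF611 had 0 reads in foregut, at least 94.3-fold lower, and ZNF480 had a log2 change of 0.90 and was not called. Their cofactor TRIM28 had 770, 590 and 622 CPM in endoderm and 693 and 449 CPM in foregut, with overlapping ranges (log2 -0.21, edgeR adjusted p = 0.544), and the histone methyltransferase SETDB1 a log2 change of -0.04 (edgeR adjusted p = 0.921). The sign of TRIM28 turned without foregut replicate 2, and that of SETDB1 also under other scalings. Of 20 silencing genes at level 6 were called lower and 14 were not called, with DNMT3B, a de novo DNA methyltransferase, down by log2 -3.29. This count is not particular to silencing genes, as 37.3% of all described genes were called in either direction.

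Transposable elements (TE) changed with the stage too. Reads were summed per subfamily after leaving out integrants that overlap exons, and were scaled by gene reads. Of 1014 subfamilies 189 were called by adjusted p alone (18.6%), 156 higher and 33 lower, with a median log2 change of 0.68. Scaled instead by TE reads, the median was -0.65 and 95 were called, 23 higher and 72 lower, so the split of directions rests on the scaling. Scaled by gene reads, the median was -0.16 without foregut replicate 1 and 0.58 to 1.03 without any other single library. Its sign therefore rests on that foregut library too. TE reads were 1.22 to 1.75% of gene reads in endoderm and 1.87 and 2.01% in foregut. Changes below are relative to gene reads, and none of the called subfamilies named below turned its sign with the other scaling. The count also rests on single libraries, with 9 called without endoderm replicate 2, 120 without endoderm replicate 1, 416 without foregut replicate 2 and 534 without foregut replicate 1.

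LTR7 and HERVH-int, the terminal repeat and body of HERVH, which is active in hESC, lost most of their reads. LTR7 had 2346, 2331 and 2267 CPM in endoderm and 61.7 and 40.9 CPM in foregut (log2 change with SE 0.54, edgeR adjusted p = 0.00102), and HERVH-int 2422, 2412 and 2386 CPM and 130 and 55.5 CPM (log2 -4.69 ± 0.59, edgeR adjusted p = 0.00261). The 2 names share integrants. Of 544 LTR7 integrants tested 140 were called lower and none higher, where 2.8% of 39436 integrants of all subfamilies were called in either direction. LTR6B fell from 187, 154 and 206 CPM to 2.10 and 1.27 CPM (log2 -6.75 ± 0.53). Most of these reads came from 1 integrant on chromosome 3, with 173, 139 and 189.8 CPM in endoderm, and 3 of 18 LTR6B integrants tested were called lower.

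HERVS71-int and its terminal repeat LTR6A fell in repressed cells. HERVS71-int had 1065, 652 and 774 CPM in repressed endoderm and 92.9 and 113 CPM in repressed foregut (log2 -3.01 ± 0.46, edgeR adjusted p = 0.00432), and 506 to 621 CPM in control endoderm and 511 and 266 CPM in control foregut. LTR6A had 782, 387 and 447 CPM in repressed endoderm and 98.9 and 116 CPM in repressed foregut, against 246 to 432 CPM and 515 and 266 CPM in control cells, and its log2 change of -2.32 turned to 0.954 when integrants with merged names were left out. The differences of -2.46 ± 0.52 and -2.55 ± 0.58 did not pass the test (edgeR adjusted p = 0.0798 and 0.0891). The difference was called for 2 of 1063 subfamilies (0.188%), MER92-int and HERVL40-int, both at 0 reads in repressed foregut and at means of 0.743 and 2.87 CPM in control foregut.

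Of the listed SVA and young LINE-1 subfamilies some rose. SVA_E, of the hominid-specific composite SVA family, had 1.98, 0.956 and 1.85 CPM in endoderm and 31.4 and 20.01 CPM in foregut (log2 4.02 ± 0.48, edgeR adjusted p = 0.00194). SVA_C and SVA_D rose by log2 3.35 and 1.93, while SVA_A, SVA_B and SVA_F had log2 changes of 1.25, 0.20 and 1.32 and were not called (edgeR adjusted p = 0.192, 0.783 and 0.0664). L1HS, the youngest LINE-1, had 2.37, 5.16 and 7.90 CPM in endoderm and 19.2 and 14.8 CPM in foregut (log2 1.73 ± 0.52, edgeR adjusted p = 0.0479), while the older L1PA3 fell by 1.46 on the log2 scale and L1PA2 was not called (log2 0.44, edgeR adjusted p = 0.645). Scaled by TE reads, SVA_E kept its call at log2 2.61, and SVA_C, SVA_D and L1HS lost theirs at log2 1.90, 0.50 and 0.44 (edgeR adjusted p = 0.0668, 0.454 and 0.498). The smallest p-values among rises belonged to Looper, PABL_B-int, AluYa5, LTR10C and SVA_E, and among falls to LTR6B, LTR7, MADE2, HERVH-int and LTR1B. MER11C fell from 13.1, 10.4 and 14.4 CPM to 2.76 and 1.53 CPM (log2 -2.55 ± 0.49), and MER11A had a log2 change of -0.34 (edgeR adjusted p = 0.773). LTR5A and HERVK-int, which also share integrants, had log2 changes of -0.56 and -0.60 and were not called. None of 25 LTR5_Hs integrants and none of 8 LTR5B integrants tested was called, at an edgeR adjusted p under 0.05, while 1105 integrants were called in all and 4018 had an unadjusted p under 0.05.

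**Figure D5:**
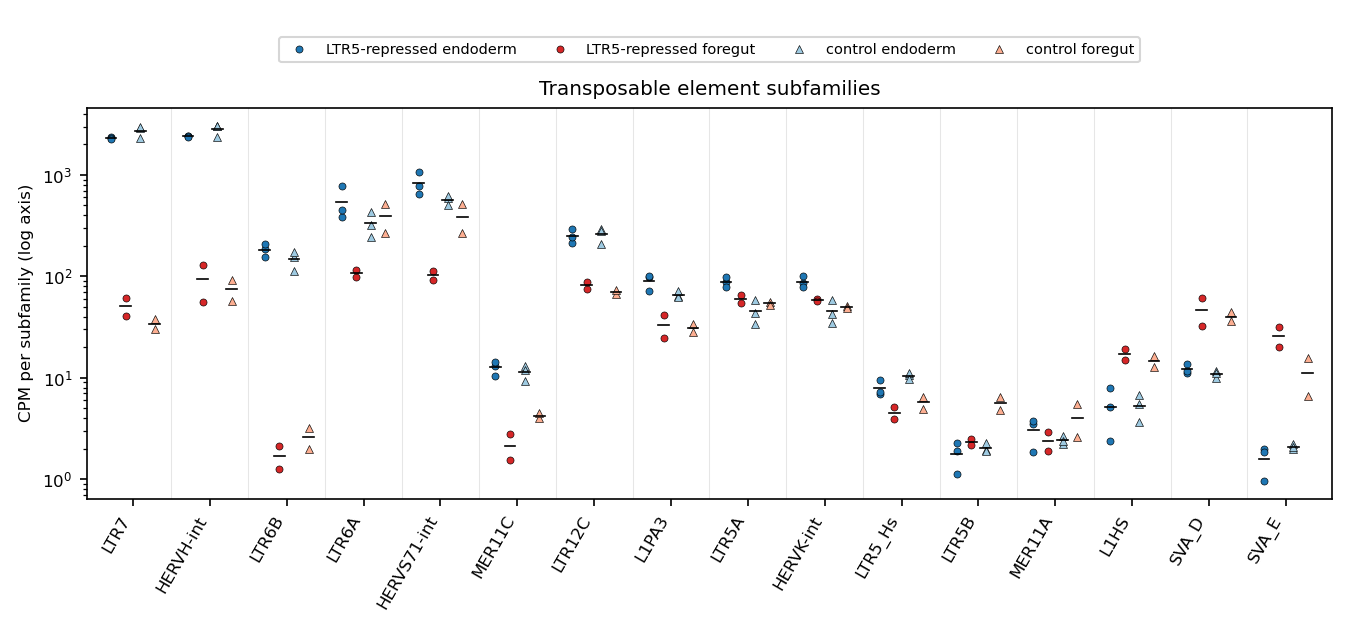
CPM per TE subfamily in each library (log y axis) for 16 subfamilies in LTR5-repressed cells (circles) and control cells (triangles), with a bar at each group mean. LTR7 goes from 2267 or more to 61.7 CPM or less in repressed cells, SVA_E from 1.98 or less to 20.01 or more, and LTR5_Hs from 6.92 to 9.41 CPM to 3.88 and 5.16 CPM.

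Of 1105 integrants called, 783 were higher and 322 lower in foregut, and the count lay between 524 and 14265 when any of the 5 libraries was left out. With the replicate number as a block it was 193, with the directions turned to 60 higher and 133 lower. Over all 39436 integrants tested the median log2 change was 3.94, and it was -3.46 without foregut replicate 1. The split of directions thus rests on which libraries are used. The largest rises were integrants with 0 reads in endoderm. An L1MC4 integrant on chromosome 7 (121131103 to 121131406, GRCh37) had 73.2 and 64.4 CPM in repressed foregut and 29.7 and 15.5 CPM in control foregut, and an AluJr integrant (121131601 to 121131905) close to it had 29.3 and 10.9 CPM. An L1MEc integrant (chromosome 14, 38023218 to 38023781) and an L1MD1 integrant (38105216 to 38105899), with 34.7 and 28.4 CPM and 17.7 and 15.4 CPM, overlap the genes MIPOL1 and TTC6 and lie on either side of FOXA1 (38058757 to 38065264). Another of the 5 largest, on chromosome Y, is not reported. The falls had 0 reads in foregut. A MIRb integrant (chromosome 9, 14717445 to 14717578) with 229, 433 and 493 CPM in endoderm and a MADE2 integrant (14718014 to 14718075) lie 2144 and 1647 bases from CER1 (14719722 to 14722731), and whether their reads belong to that transcript was not tested. The others were HERVH integrants with LTR7 ends on chromosome 1 (223197738 to 223203498) and chromosome 3 (112137259 to 112142212), with 112 to 249 and 135 to 244 CPM in endoderm, and the LTR6B and HERVS71 integrant on chromosome 3 (146122793 to 146129944) described above, which overlaps PLSCR2.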

How the data were processed

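RNA was made into libraries with a stranded mRNA kit. The authors aligned reads to hg19 (GRCh37) with HISAT2 and counted uniquely mapped reads of mapping quality over 10 with featureCounts, per gene and per TE integrant. Whether counting used strand is not given in the sources used here. The deposited values are raw counts, which were used as deposited. Genes with 3 or more reads in at least 1 library of a fit entered edgeR 4.0.16 in R 4.3.3 and its 2-sided quasi-likelihood test, with TMM factors computed once over 12 bulk libraries and Benjamini-Hochberg adjustment over all genes tested. The main fit held the 5 LTR5-repressed libraries. The difference between arms was an interaction over 10 libraries. The study used limma voom, which was an alternative here (limma 3.58.1), as was DESeq2 1.42.0. Integrants with merged names counted under each name, and integrants overlapping exons were left out of subfamily sums. CPM are normalised counts per 1000000 gene reads. Bounds of folds use 3 counts over a group. Intervals and floors cover counting error only. The scripts were tested on simulated data.

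The text names, by rule, list genes, the 10 largest rises and falls and, per stage, the 10 genes with most reads (among called protein-coding genes, for reads only those not mitochondrial), the first 20 difference genes by p, listed subfamilies and the 5 smallest p per direction, and the 5 largest rises and falls of integrants. Genes beyond this rule were chosen after their values were seen. The genes described, the lists and the tests were chosen with earlier results of these data known. LHX1, PECAM1 and UHRF1 were not analysed here, and the values of a few other genes are not reported here. Single-nucleus samples and undifferentiated hESC were not used for these comparisons, except hESC in TMM factors.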

Additional observations from a re-analysis of the deposited data

Results flagged for a closer look

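Genes whose stage change differed between LTR5-repressed and control cells, by the interaction test of edgeR at an adjusted p under 0.05 and a fold over 2, were flagged. Values are differences on the log2 scale, LTR5-repressed minus control. Calls that rest on 0 reads in a foregut group are not firm. With 0 reads in both repressed foregut libraries, so that the sizes are not firm, were CXCL12 (-7.88), MYB (-8.24), GAD1 (-8.94), VENTX (-6.81), NR2C2 (-8.83), ENSG00000266709 (-8.77), KLHL4 (-8.19), MCM9 (-7.54), HAND1 (-8.32), CALN1 (-8.04), LAMA2 (-7.15), SEZ6L (-7.87), ERBB4 (-8.16), ZNF730 (-7.92), REXO5 (-6.99), FGF19 (-7.32) and SP5 (-5.75). With 0 reads in both control foregut libraries were ESRG (8.60), MEGF10 (7.72) and THBS2 (8.50). With reads in both foregut groups, though 1 read over repressed foregut for SAMD11 and 4 over control foregut for ZAP70, were ZIC2 (3.63), SAMD11 (-5.30), POU5F1B (2.95), TMEM141 (-3.96), APLN (4.83), LINC02315 (-3.59), ZAP70 (3.57), RTL8C (-2.04) and BGN (2.69). The TE subfamilies MER92-int (-8.09) and HERVL40-int (-8.64) were flagged by the same test. No group held 4 or more libraries, so none was examined for a library standing apart.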

How the results depend on the processing

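The count of described genes called, 4395, lay between 3313 and 5302 under every alternative that kept the 5 CPM level, and was 2871 (1203 higher) at a level of 20 CPM. The difference between arms called 31 genes, and 11 with limma voom, 118 with DESeq2, 93 without the low-count filter, 615 at unadjusted p and 0 to 341 leaving out 1 library. All 31 were among DESeq2's 118. For subfamilies the stage count of 189 (156 higher, 33 lower) became 288 (94 lower) with voom, 95 (23 and 72) with TE library sizes, 370 (249 and 121) at unadjusted p, 57 lower with exon-overlapping integrants, 21 lower with single names, and 9 to 534 leaving out 1 library (5 to 317 higher, 4 to 251 lower), with 9 without endoderm replicate 2. The 2 subfamilies of the difference became 7 with voom, 5 with TE library sizes, 1 with exon-overlapping integrants, 101 at unadjusted p and 0 to 132 leaving out 1 library. Integrants called, 1105 (783 and 322), became 2430 (1639 and 791) with voom and 524 to 14265 leaving out 1 library (311 to 12994 higher, 203 to 1427 lower), the highest without foregut replicate 2, so integrant counts depend on which libraries are used.

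The samples share only replicate numbers, and with 2 shared numbers no pairing could be shown (deviations correlated at r = 0.175 and 0.166). With the replicate number as a block, 4449 genes and 188 subfamilies were called for the stage, 193 integrants (60 higher, 133 lower), and 10 genes and 0 subfamilies for the difference.

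Signs turned for values that were not called: SETDB1 was 0.0103 with DESeq2, 0.0251 with RLE scaling, 0.01 without mitochondrial genes and -0.155 to 0.186 leaving out 1 library, TRIM28 -0.556 to 0.0693 leaving out 1 library, LTR5B -0.945 with TE library sizes and -0.409 with single names, and LTR5A 2.00 and HERVK-int 1.19 with single names. LTR6A, which was called lower, was 0.954 with single names (edgeR adjusted p = 0.194). Of the list counts, 492 stayed within 1.5 times and 18 did not. Retinoic acid genes called lower went from 3 to 5 without foregut replicate 1 and with the replicate block, mitochondrial genes called higher from 11 to 6 without foregut replicate 1 and to 0 where these genes were left out, and zinc finger genes called lower from 11 to 6 and 4 without endoderm replicates 2 and 3. The rest were counts of 0 or 1 that moved by 1. Of the single values named, 2982 kept their side of the threshold, 316 lost and 16 gained the call over all alternatives. The median of all genes shifted by -0.32 without the filter and -0.35 without foregut replicate 1. The causes were not tested.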
